A study of Mus musculus with 15 samples.

Results

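The connexins described here are the gap junction proteins encoded by Gja5, Gjc1, Gja4, Gja1, Gjb1 and Gjb2, 6 of the 21173 genes that the arrays could name. They were taken by gene symbol, through the RefSeq identifiers of the probes. Their levels were not a criterion, but the choice was made with earlier results of these data known. They are covered by 7 of 55681 probes, 2 for Gja5 and 1 for each of the others. RNA of endothelial cells (ECs) sorted from adult mouse liver was hybridised to 15 Agilent arrays in one colour, with 3 arrays per sorted population and 5 populations in all. EC-SP cells and EC-MP cells came from livers labelled 8 weeks. The remaining populations, CD157+CD200+, CD157-CD200+ and CD157-CD200- ECs, are named by the presence or absence of 2 surface proteins. The labels do not spell out SP and MP, which in cell sorting usually stand for side population, the cells that pump out a dye, and main population. They give no strain or number of animals, and they describe the 3 samples of a group as independent.

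Gap junctions are clusters of channels that join the cytoplasm of neighbouring cells. Connexin subunits form a hemichannel in each cell, and the paired hemichannels let ions and small metabolites pass. In vessels the endothelium uses mainly the products of Gja5 (connexin Cx40), Gja4 (Cx37) and Gja1 (Cx43), and Gja5 is best known from arterial endothelium. Gjc1 encodes Cx45, known from the heart and from vascular smooth muscle. Gjb1 (Cx32) and Gjb2 (Cx26) encode the gap junction proteins of hepatocytes. In bulk RNA, fewer cells that express a gene and less RNA per cell cannot be told apart.

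The promoter sequences of the 3 main endothelial connexins are shown first, because Gja5, Gja4 and Gja1 followed different patterns over the sorted groups. Each is the stretch of 250 bases before the start of the gene in RefSeq, build GRCm38.p6, read 5′ to 3′ on the gene's own strand. The stretch of Gja5 lies at chr3:97032152-97032401 on the plus strand, that of Gja4 at chr4:127314040-127314289 on the minus strand and that of Gja1 at chr10:56377050-56377299 on the plus strand. Capitals mark matches on either strand to 5 short motifs, and no matches overlap. The SOX core was searched as ACAAAG. The core of KLF factors was searched as CACCC. For GATA factors the letters were AGATAA. For RBPJ, the DNA-binding partner of Notch, they were TGGGAA. The TATA box was searched as TATAAA.
Gja5: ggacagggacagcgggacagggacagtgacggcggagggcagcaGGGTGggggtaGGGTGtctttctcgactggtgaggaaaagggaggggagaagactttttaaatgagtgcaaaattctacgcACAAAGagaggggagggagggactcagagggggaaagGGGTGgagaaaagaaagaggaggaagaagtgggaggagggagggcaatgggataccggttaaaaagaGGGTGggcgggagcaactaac
Gja4: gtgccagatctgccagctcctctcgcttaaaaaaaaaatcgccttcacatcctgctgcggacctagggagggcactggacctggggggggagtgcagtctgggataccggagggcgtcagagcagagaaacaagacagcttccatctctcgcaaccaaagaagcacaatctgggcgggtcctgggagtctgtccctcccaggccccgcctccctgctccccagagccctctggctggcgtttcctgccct
Gja1: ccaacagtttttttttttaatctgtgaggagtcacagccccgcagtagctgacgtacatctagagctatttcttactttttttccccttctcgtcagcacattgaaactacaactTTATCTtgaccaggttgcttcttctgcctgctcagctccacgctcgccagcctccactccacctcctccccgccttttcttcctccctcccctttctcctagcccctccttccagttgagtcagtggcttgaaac
The Gja5 stretch held 1 SOX match, beginning at base -125 counted from the start, and 4 KLF matches, beginning at bases -206, -195, -88 and -21. The Gja1 stretch held 1 GATA match at base -135, and the Gja4 stretch held none of the 5 motifs. Among stretches of the same length before 32851 RefSeq starts, 16.5% held a SOX match, 52.0% a KLF match, 9.99% a GATA match, 21.6% an RBPJ match and 12.4% a TATA match. A match is a description of the letters and not of a bound site. RefSeq promoter entries were found for 5 of the 6 genes, all but Gjc1.

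Levels are given below as log2 signal relative to the 75th percentile of the array, and differences as the first group minus the second on that log2 scale, with the standard error (SE) and 3 arrays a group. Called means that limma gave an adjusted p under 0.05, by Benjamini-Hochberg over all features tested. Between 57.3% and 69.4% of the spots of an array were well above background, and replicates correlated at r of 0.959 to 0.973 over all probes. All 9 markers of endothelium in general, among them Pecam1 and Cdh5, were well above background on every array, with mean levels of 3.97 to 4.58. The sort genes followed their labels. Bst1, which encodes CD157, averaged 2.57 in CD157+CD200+ ECs, -2.41 in CD157-CD200+ ECs and -3.17 in CD157-CD200- ECs. Cd200 averaged 4.42, 3.37 and -4.42 in the same 3 groups. EC-SP and EC-MP arrays were read on another scanner than the subsets, so levels are compared within each of those 2 sets of arrays only. The connexins apart from Gjb2 were well above background on all 15 arrays.

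**Figure D1:**
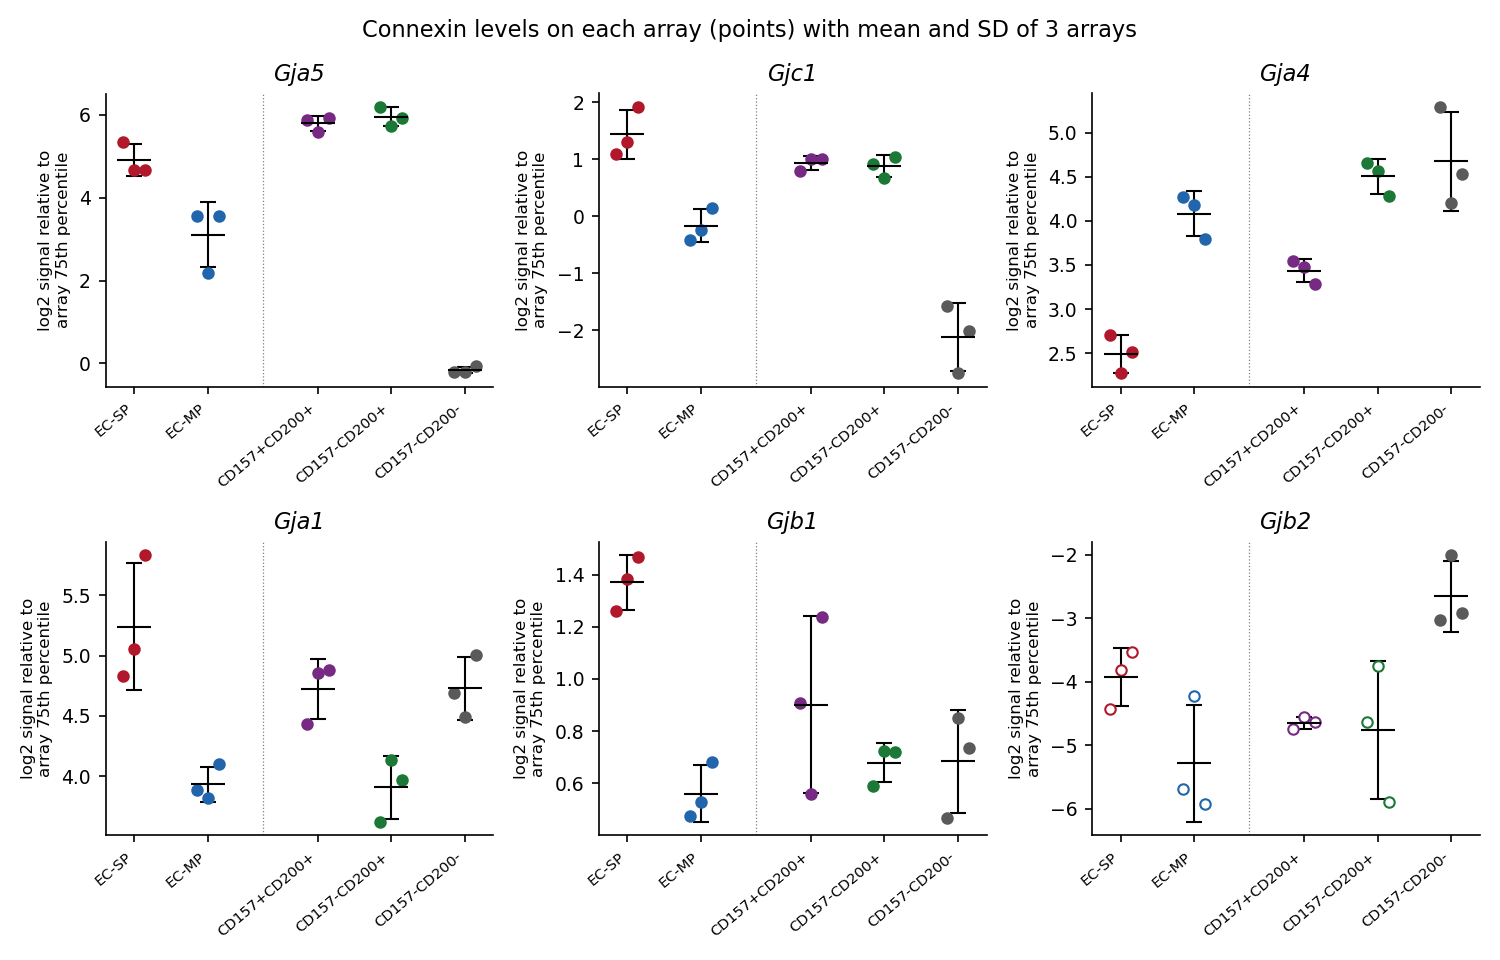
Level of each connexin on each array, as log2 signal relative to the array's 75th percentile (vertical axis), by sorted group (horizontal axis). Points are arrays, the bars are the mean and SD of 3 arrays, and open points mark a group in which the probe was not well above background on all 3 arrays. Gja5 stands between 5.58 and 6.19 in both CD200+ subsets and between -0.21 and -0.07 in CD157-CD200- ECs.

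In EC-SP cells, 4 of the 5 connexins that could be tested rose relative to EC-MP cells, and 1, Gja4, fell. All 5 passed the test, against 16.6% of the 23971 features tested. By direction, 9.11% of features were called higher and 7.44% lower. Gja5 had 5.34, 4.68 and 4.68 in EC-SP cells, against 3.56, 2.19 and 3.56 in EC-MP cells. It was 3.47-fold higher in EC-SP cells, a difference of 1.80 ± 0.39 (adjusted p = 0.0149, limma). The 3 EC-SP arrays all stood above the 3 EC-MP arrays, EC-MP replicate 2 was low, and the difference was 1.12 to 2.48 within the 3 slides. The second Gja5 probe gave 1.61 (adjusted p = 0.0171). Leaving out EC-SP replicate 1 left a Gja5 difference of 1.57 that was no longer called (adjusted p = 0.0571).

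Gjc1 moved with Gja5 in this comparison. It had 1.09, 1.29 and 1.92 in EC-SP cells, against -0.42, -0.24 and 0.15 in EC-MP cells. The groups did not overlap, and the difference was 1.61 ± 0.28, or 3.05-fold (adjusted p = 0.00539). Gja1 had 4.83, 5.05 and 5.83 in EC-SP cells, against 3.89, 3.82 and 4.10 in EC-MP cells. Its difference was 1.30 ± 0.29, or 2.47-fold (adjusted p = 0.0158), and the third EC-SP array was the highest of the 6. Without EC-MP replicate 1 or EC-MP replicate 2 the adjusted p of Gja1 became 0.0506 and 0.0596.

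Gja4 was the connexin that ran the other way. It had 2.70, 2.27 and 2.51 in EC-SP cells, against 4.27, 4.18 and 3.79 in EC-MP cells, a 3.01-fold lower level (difference -1.59 ± 0.24, adjusted p = 0.00234). All EC-SP arrays were below all EC-MP arrays, and the call held when any 1 array was left out. Sinusoidal markers moved the same way: all 8 of that list, which includes Stab2 and Lyve1, fell in EC-SP cells. On EC-SP arrays 7 of them were well above background throughout, and the other passed the filter only through EC-MP cells. The mean level of that list was -0.89 to -0.55 on EC-SP arrays and 3.69 to 4.54 on EC-MP arrays. All 10 arterial markers other than connexins rose, with list means of 2.74 to 3.21 on EC-SP arrays and 0.12 to 0.52 on EC-MP arrays. Jag2, 1 of the 10, was above background on no EC-MP array. It passed the filter only through EC-SP cells, where it was high, so its rise is a description. The part of either list in the connexin differences was not tested.

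Of the hepatocyte connexins, Gjb1 had 1.26, 1.38 and 1.47 in EC-SP cells, against 0.47, 0.53 and 0.68 in EC-MP cells. The difference was 0.81 ± 0.21, or 1.75-fold (adjusted p = 0.0283), with 0.79 to 0.86 within the 3 slides. This call was lost when any array but EC-MP replicate 3 was left out, with adjusted p of 0.0624 to 0.102. The cholangiocyte list moved with Gjb1: 5 of its 8 tested members rose, and its mean level was 0.01 to 0.17 on EC-SP arrays and -1.75 to -1.23 on EC-MP arrays, with Cftr above background on no array of either group. The hepatocyte list had 3 of 9 tested members higher and 3 lower, with means of -1.92 to -1.65 in EC-SP cells and -1.77 to -1.57 in EC-MP cells. The part of these cells in the Gjb1 difference was not tested. Gjb2 was well above background on 1 of 3 EC-SP arrays and 0 of 3 EC-MP arrays and was not tested there.

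**Figure D2:**
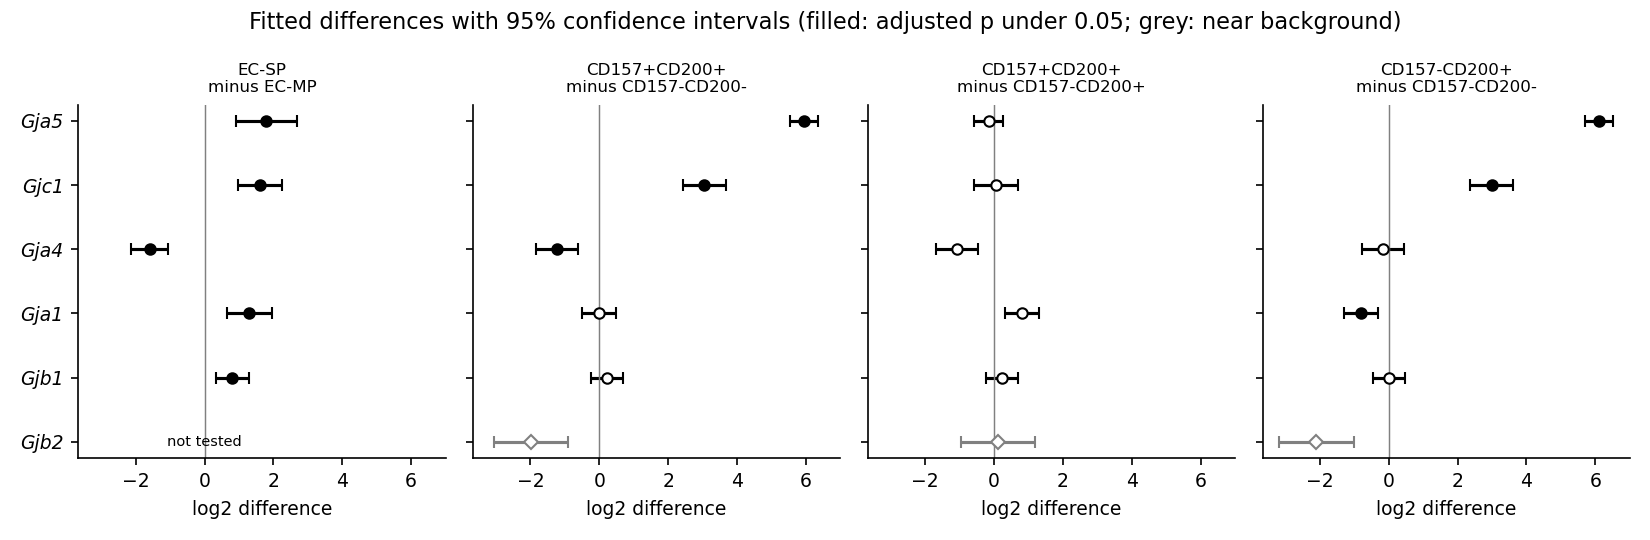
Fitted log2 difference of each connexin (horizontal axis) with its 95% confidence interval in 4 comparisons, with filled points for those called and open points for those not called; Gjb2, near background, is drawn as a grey diamond whatever its call. Gja5 and Gjc1 lie far to the right of 0 in both comparisons with CD157-CD200- ECs and near 0 between the CD200+ subsets, while Gja4 lies left of 0 in EC-SP cells and in CD157+CD200+ ECs.

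In CD157+CD200+ ECs, Gja5 and Gjc1 rose and Gja4 fell relative to CD157-CD200- ECs. That is 3 of the 5 connexins well above background on all arrays, against 15.2% of 23701 features called (8.09% higher and 7.11% lower). Gjb2 passed the filter in the subsets only through CD157-CD200- ECs, where it was high. Its differences there are therefore a description and are not counted. Gja5 had 5.87, 5.58 and 5.91 in CD157+CD200+ ECs, against -0.20, -0.21 and -0.07 in CD157-CD200- ECs. The arrays of a group lay close together, and the difference of 5.95 ± 0.18 was 61.7-fold (adjusted p = 1.31e-07). Within the slides it ran from 5.79 to 6.07. The second Gja5 probe was dimmer and gave the same order, with 1.51, 1.36 and 1.28 in CD157+CD200+ ECs and -2.79, -2.27 and -2.87 in CD157-CD200- ECs. Its difference was 4.03 (adjusted p = 1.45e-06), so the 2 probes share a direction and differ in size.

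Gjc1 had 0.78, 0.99 and 1.01 in CD157+CD200+ ECs, against -1.57, -2.76 and -2.02 in CD157-CD200- ECs. The difference was 3.05 ± 0.28, or 8.27-fold (adjusted p = 5.75e-05), and CD157-CD200- replicate 2 was the lowest array. Gja4 had 3.54, 3.48 and 3.29 in CD157+CD200+ ECs, against 5.29, 4.20 and 4.53 in CD157-CD200- ECs. It was 2.36-fold lower, a difference of -1.24 ± 0.27 (adjusted p = 0.0120), and the groups did not overlap. Gja1 did not pass the test, with a difference of -0.01 and a 95% confidence interval of -0.50 to 0.49. Nor did Gjb1, at 0.22 with an interval of -0.25 to 0.68.

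Gjb2 was the only connexin near background in the subsets. It had -4.74, -4.55 and -4.64 in CD157+CD200+ ECs, none of them well above background, against -3.03, -2.01 and -2.92 in CD157-CD200- ECs, all well above background. Set against the lowest signal called well above background, the CD157+CD200+ level was at least 2.58-fold lower. No p-value is read for this difference, since the probe passed the filter only through CD157-CD200- ECs. Hepatocyte markers moved with Gjb2: 6 of 11 tested members of the list without connexins fell. Their mean level was -1.57 to -1.12 on CD157+CD200+ arrays and -0.05 to 0.22 on CD157-CD200- arrays, and each of the 12 was above background on some array of both groups. The part of hepatocyte RNA in the Gjb2 difference was not tested.

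CD157-CD200+ ECs were set against the same CD157-CD200- arrays as CD157+CD200+ ECs, so the values stand side by side and are not independent. In CD157-CD200+ ECs, Gja5 and Gjc1 rose and Gja1 fell relative to CD157-CD200- ECs, 3 of the same 5 connexins, against 11.8% of 23701 features (6.31% higher and 5.54% lower). Gja5 had 6.19, 5.73 and 5.92 in CD157-CD200+ ECs, all above the CD157-CD200- arrays given above, a difference of 6.10 ± 0.18, or 68.8-fold (adjusted p = 1.32e-07). Gjc1 had 0.92, 0.67 and 1.04, and its difference was 2.99 ± 0.28, or 7.96-fold (adjusted p = 8.63e-05). Gja1 had 3.62, 4.14 and 3.97 in CD157-CD200+ ECs, against 4.69, 4.49 and 5.002 in CD157-CD200- ECs. It fell by 0.82 on the log2 scale (SE 0.22, adjusted p = 0.0396), a call lost when any of 7 of the 9 arrays was left out, with adjusted p of 0.0525 to 0.161.

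Gjb2 had -4.62, -3.74 and -5.89 in CD157-CD200+ ECs, where 1 of 3 arrays was well above background, and all 3 stood below the CD157-CD200- arrays. Of the hepatocyte list, 9 of 11 tested members were lower in this comparison. Gja4, with 4.66, 4.57 and 4.28 in CD157-CD200+ ECs, did not pass the test against CD157-CD200- ECs (difference -0.17, interval -0.78 to 0.44). CD157-CD200- replicate 1, at 5.29, was the high array of that group. Sinusoidal markers fell in this comparison too, 7 of 8 of them, and their part in the Gja4 levels was not tested. The means of the sinusoidal list were 1.48 to 1.66 in CD157-CD200+ ECs, against 5.71 to 6.18 in CD157-CD200- ECs.

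Between the CD200+ subsets, CD157+CD200+ minus CD157-CD200+, none of the 6 connexins was called by limma, against 1.05% of features (0.802% higher and 0.245% lower), while Gja1 and Gja4 had an unadjusted p under 0.05, as did 8.57% of features. Their groups did not overlap, as was so for 14.6% of features. Gja1 had 4.44, 4.85 and 4.88 in CD157+CD200+ ECs and was higher within all 3 slides, by 0.72 to 0.91 (difference 0.81 ± 0.22, interval 0.32 to 1.31, adjusted p = 0.182). Gja4 was lower in CD157+CD200+ ECs within all 3 slides, with differences of -1.12 to -0.995 (fitted difference -1.07 ± 0.27, interval -1.67 to -0.46, adjusted p = 0.143). Gja4 was called in this comparison with normexp and quantile normalization (-1.08, adjusted p = 0.0187) and without CD157-CD200- replicate 1 (adjusted p = 0.0480). The Gja5 difference was -0.16 with an interval of -0.57 to 0.25, and that of Gjc1 was 0.05 with an interval of -0.58 to 0.68. The second Gja5 probe gave -0.17 (adjusted p = 0.987).

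A contrast between the CD157 step, CD157+CD200+ minus CD157-CD200+, and the CD200 step, CD157-CD200+ minus CD157-CD200-, tested whether the signed steps differed. It was called for 3 of 6 connexins, against 4.18% of features (1.87% higher and 2.31% lower). Gja5 gave -6.26 (adjusted p = 1.54e-05) and Gjc1 gave -2.94 (adjusted p = 0.00882), the CD200 step being the larger for both. Gja1 gave 1.63 (adjusted p = 0.0456), with steps of 0.81 and -0.82 that were opposite in sign and close in size. The Gja1 call was lost in 8 of 9 runs without 1 array (adjusted p 0.0533 to 0.244), and the Gjc1 call without CD157-CD200+ replicate 1 (0.0550).

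**Figure D3:**
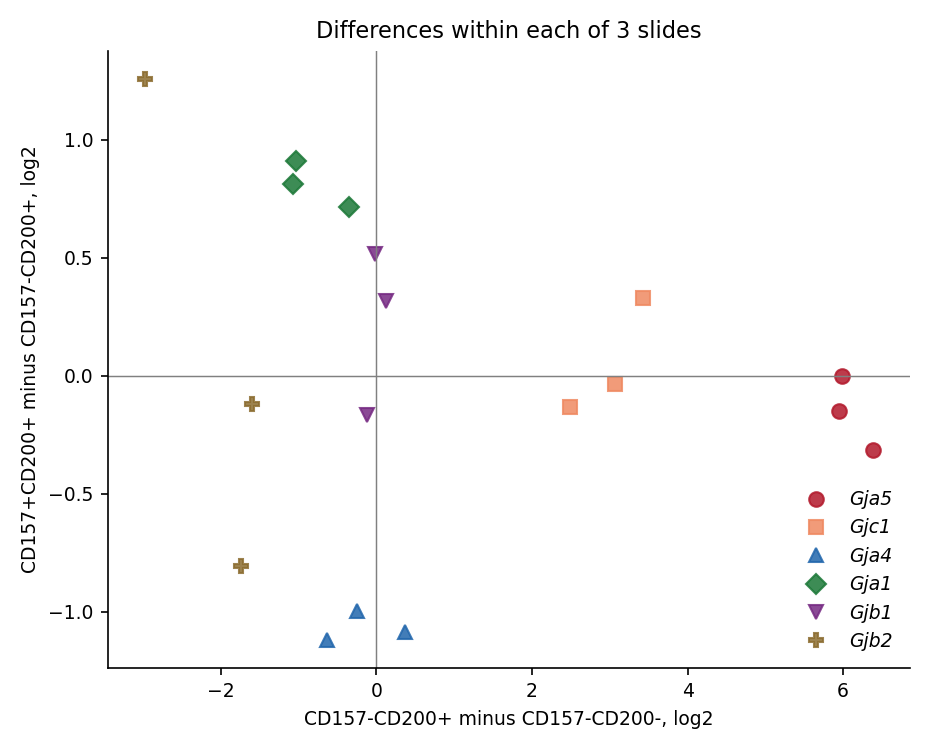
Difference across the CD157 step (vertical axis, log2) against the difference across the CD200 step (horizontal axis, log2) for each connexin within each of 3 slides; the CD157-CD200+ array enters both axes. Gja5 and Gjc1 lie far right and near 0 on the vertical axis, Gja4 lies near 0 on the horizontal axis and at about -1.12 to -0.995 on the vertical axis, and Gja1 lies left of 0 and above it.

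The order of mean levels in the subsets differed by connexin. Gja5 averaged 5.79 ± 0.18 in CD157+CD200+, 5.95 ± 0.23 in CD157-CD200+ and -0.16 ± 0.08 in CD157-CD200- ECs (SD), with the CD200+ subsets overlapping at the top. Gjc1 averaged 0.93 ± 0.13, 0.88 ± 0.19 and -2.12 ± 0.60 in the same 3 groups, again with overlapping CD200+ subsets above CD157-CD200- ECs. Gja4 averaged 3.44 ± 0.13, 4.50 ± 0.20 and 4.67 ± 0.56, so that CD157+CD200+ ECs were lowest and the CD157- subsets overlapped above them. Gja1 averaged 4.72 ± 0.25, 3.91 ± 0.26 and 4.73 ± 0.26, with CD157-CD200+ ECs lowest and the others overlapping. Gjb1 averaged 0.90 ± 0.34, 0.68 ± 0.08 and 0.68 ± 0.20, and all 3 groups overlapped. Gjb2 was highest in CD157-CD200- ECs, the only subset where every array measured it.

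The EC-SP minus EC-MP difference was also set against the CD157+CD200+ minus CD157-CD200- difference in 1 fit of all 15 arrays, since calls in both comparisons do not show whether the sizes differ. Of the 5 connexins well above background on all arrays, this test called 1, Gja5, against 5.05% of 25062 features (2.07% higher and 2.97% lower). The Gja5 difference was the smaller one between EC-SP and EC-MP cells, with a contrast of -4.15 ± 0.45 (adjusted p = 7.74e-05), and the second probe gave -2.42 (adjusted p = 0.00396). Gja5 averaged 3.10 ± 0.79 in EC-MP cells. For Gjb2 no contrast is read, since its signals were at or near background in 4 of the 5 groups. Gjc1 gave -1.44 (adjusted p = 0.0630) and Gja1 1.31 (adjusted p = 0.0578), and both were called with the replicate number as a block (0.0208 and 0.0153).

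Mural cells, which also use Gjc1, were followed with a list of smooth muscle, pericyte and stellate markers. Its mean level was -1.23 to -0.60 on CD157+CD200+ arrays, -1.03 to -0.16 on CD157-CD200+ arrays and -1.81 to -1.30 on CD157-CD200- arrays. In CD157+CD200+ relative to CD157-CD200- ECs, 2 of 11 tested members rose and 2 fell. Of all features, 8.09% were called higher in that comparison and 7.11% lower. The risers were the pericyte genes Rgs5 (3.84, adjusted p = 9.23e-06) and Pdgfrb (4.79, well above background on 2 of 3 CD157-CD200- arrays). Pdgfrb passed the filter only through the CD200+ subsets, where it was high, so its value is a description. The genes that fell were Lrat (-3.05, well above background on 1 of 3 CD157+CD200+ arrays), a stellate cell enzyme, and the proteoglycan gene Dcn (-1.06, adjusted p = 0.0289). Lrat passed the filter only through the CD157- subsets, where it was higher, so its value is a description. The mural markers Cspg4 (0.32) and Des (1.16) were not called. In CD157-CD200+ relative to CD157-CD200- ECs, 3 rose and 2 fell, against 6.31% and 5.54% of all features. In EC-SP cells 1 rose, Rgs5 (3.75, adjusted p = 0.000179), and 2 fell, Lrat and Reln, against 9.11% and 7.44% of all features. Lrat and Reln were above background on no EC-SP array. They passed the filter only through EC-MP cells, where they were high, so their falls are descriptions. The list means were -2.04 to -1.68 in EC-SP cells, against -2.10 to -1.70 in EC-MP cells. Reln was above background on no array in the subsets or in EC-SP cells, and Pdgfrb on none in EC-MP cells. The part of mural cells in the Gja5 and Gjc1 differences was not tested. Arterial markers moved with Gja5 and Gjc1 here too: 7 of 10 rose in CD157+CD200+ ECs. Their list means were 2.39 to 2.56, against -0.19 to -0.01 in CD157-CD200- ECs. Among the risers, Jag2, Sema3g and Fbln5 were well above background on 1, 1 and 2 of 3 CD157-CD200- arrays. They passed the filter only through the CD200+ subsets, where they were high, so their rises are descriptions. Venous markers moved this way as well: 4 of 8 rose and none fell, with means of 3.45 to 3.85, against 0.77 to 1.44. The part of either list was not tested. Sinusoidal markers fell in 8 of 8 cases, with means of 0.63 to 0.83 in CD157+CD200+ ECs, against 5.71 to 6.18 in CD157-CD200- ECs. Kupffer cell markers fell in 5 of 7 cases, with means of -1.80 to -1.23 in CD157+CD200+ ECs, against -0.15 to 0.73 in CD157-CD200- ECs. C1qa, 1 of them, was well above background on 2 of 3 CD157+CD200+ arrays. It passed the filter only through the CD157- subsets, so its fall is a description. Of 3 tested platelet markers, Pf4 alone was called. It gave -3.11 in EC-SP minus EC-MP, with 1 of 3 EC-SP arrays well above background. Pf4 passed the filter there only through EC-MP cells, where it was high, so that value is a description. In CD157+CD200+ minus CD157-CD200- it gave -4.11, with 2 of 3 CD157+CD200+ arrays well above background. It passed the filter of the subsets only through the CD157- subsets, where it was higher, so this value is a description too. Gja4 fell in both comparisons. Pf4 was also called lower in CD157-CD200+ minus CD157-CD200- (-2.99), where Gja4 was not called. The means of the platelet list were -2.27 to -1.09 in EC-SP cells, against -0.64 to -0.28 in EC-MP cells. They were -2.53 to -1.25 in CD157+CD200+ ECs and -1.31 to -0.88 in CD157-CD200+ ECs, against -0.47 to -0.09 in CD157-CD200- ECs. Gp9 was above background on no EC-MP or subset array, and the part of platelets in the Gja4 differences was not tested.

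**Figure D4:**
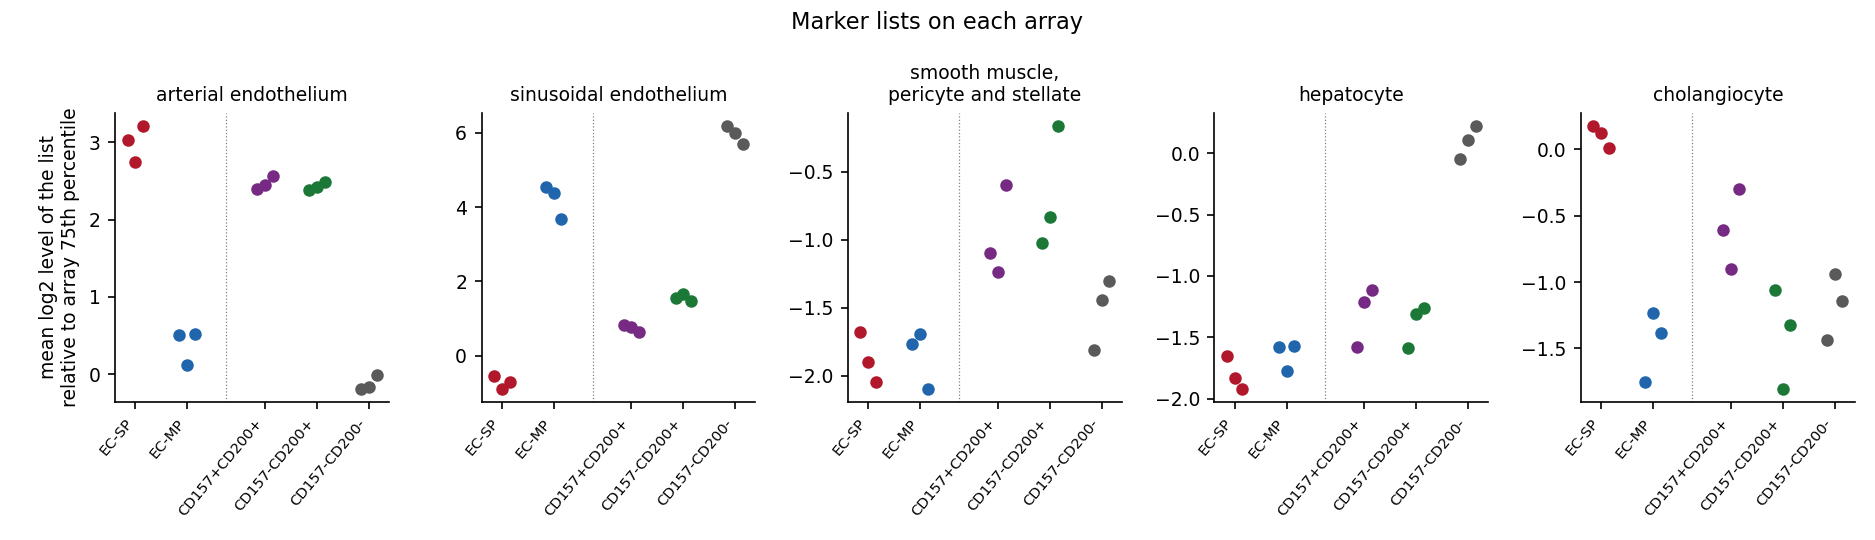
Mean log2 level of 5 marker lists on each array (vertical axis, relative to the array's 75th percentile) by sorted group (horizontal axis); each point is an array, and the arterial and hepatocyte lists hold no connexin. The arterial list stands at 2.74 to 3.21 in EC-SP cells and 0.12 to 0.52 in EC-MP cells, and among the subsets the hepatocyte list is highest in CD157-CD200- ECs.

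Genes whose levels ran most like those of each connexin over the 15 arrays were found by Pearson correlation, after the mean of each of the 2 sets of arrays was removed, among 13598 genes. These points share arrays and sorted groups, so the coefficients are descriptions. The genes were picked for this likeness, so the direction of their group differences largely follows from the choice and is no separate result. For Gja5 they were Sdc1 (r = 0.996), the syndecan-1 proteoglycan, D16Ertd472e (0.989) and Fbln5 (0.989), a protein of elastic fibres. Fbln5, which is also in the arterial list, was 1.64 higher in EC-SP than in EC-MP cells. For Gjc1 they were Col8a1 (0.982), a collagen of vessel walls, Apol10b (0.979) and Selp (0.978), the adhesion molecule P-selectin. Col8a1 was 3.54 higher in EC-SP than in EC-MP cells. For Gja4 they were Fam20a (0.956), Lhfpl2 (0.951) and Dnah8 (0.949), all lower in EC-SP cells, with differences of -1.31, -2.28 and -2.67. For Gja1 they were Casp4 (0.949), an inflammatory caspase, Parp14 (0.944) and Jarid2 (0.935), and for Gjb1 Anxa13 (0.944), Pamr1 (0.922) and Gm4951 (0.910). Among the connexins, Gja5 and Gjc1 ran most alike (r = 0.942) and Gja4 and Gjb1 most unlike (r = -0.860). The r of Gja4 with Gja5 was -0.515 and with Gja1 -0.659.

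The remaining connexins and the related pannexins were mostly not well above background. Of 17 such genes, 9 were well above background on no array, 8 of them connexins, and 6 could be tested. The connexins Gja3, Gjc3 and Gjd3 were called in none of the 4 comparisons. Panx1, which forms release channels for ATP, was the 1 gene called with the brightest probe of each gene. Of all features, 16.6% were called in EC-SP minus EC-MP, 15.2% in CD157+CD200+ minus CD157-CD200- and 11.8% in CD157-CD200+ minus CD157-CD200-. Panx1 had -1.72, -2.64 and -1.95 in EC-SP cells, against -3.80, -3.62 and -2.69 in EC-MP cells, a difference of 1.27 ± 0.35. It was also higher in CD157+CD200+ than in CD157-CD200- ECs (1.63 ± 0.28) and in CD157-CD200+ than in CD157-CD200- ECs (0.99 ± 0.28). Panx1 was well above background on 1 of 3 EC-MP arrays and 2 of 3 CD157-CD200- arrays. It passed the filter only through groups where it was high, so its differences are descriptions.

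Of 10 genes for partners and traffic of connexins, 1 rose in EC-SP cells, against 9.11% of all features called higher. The riser was Cav1, the scaffold of caveolae, at 2.00 ± 0.24 (adjusted p = 0.000724). In CD157+CD200+ relative to CD157-CD200- ECs, 3 rose: Cav1 by 3.19 (adjusted p = 0.000495), the matricellular gene Ccn3, whose product binds Cx43, and the kinase gene Src. Ccn3 and Src were above background on no CD157-CD200- array and were at least 3.08-fold and 2.34-fold higher in CD157+CD200+ ECs. Both genes passed the filter only through CD200+ subsets, where they were high, so their folds are descriptions. In CD157-CD200+ relative to CD157-CD200- ECs, Cav1 (2.20) and Ccn3 (at least 1.69-fold) rose, and Cnst, which encodes the connexin trafficking receptor consortin, fell by 0.93 (adjusted p = 0.00337). None of the 10 was called between the CD200+ subsets, against 1.05% of all features. In CD157+CD200+ minus CD157-CD200-, 8.09% of all features were called higher. In CD157-CD200+ minus CD157-CD200-, 6.31% were called higher and 5.54% lower. Over the list the median difference was 0.52 in EC-SP minus EC-MP, 0.23 in CD157+CD200+ minus CD157-CD200- and 0.03 in CD157-CD200+ minus CD157-CD200-; over all features it was -0.01, 0.01 and 0.02.

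Of 13 regulators known to act on endothelial connexin genes, 12 were tested, and 7 rose and 1 fell in EC-SP cells. Of all features, 9.11% were called higher there and 7.44% lower. Sox17, Dll4 and Hey1 stand in the arterial list too. Hey1, a Notch target, was 2.88 higher (adjusted p = 0.000175) and Sox17, an arterial transcription factor, 2.19 higher (adjusted p = 0.000300). The Notch ligand gene Dll4 (1.90), the receptor gene Notch4 (0.96) and Rbpj (0.86) also rose, as did Acvrl1 (1.35) and Foxo1 (0.79), while the co-receptor gene Eng was lower, with a difference of -1.45 ± 0.24 (adjusted p = 0.00371). In CD157+CD200+ relative to CD157-CD200- ECs, Hey1 (2.19, adjusted p = 9.29e-05) and Acvrl1 (1.52, adjusted p = 0.000782) rose and none fell, and Sox17 was not called (0.91, adjusted p = 0.0642). That is 2 of 12 tested, near the 15.2% of all features called in that comparison (8.09% higher and 7.11% lower). In CD157-CD200+ relative to CD157-CD200- ECs, Hey1 (2.30) and Acvrl1 (1.13) rose, and Dll4 (-0.79) and Notch4 (-0.71) fell. The shares of all features there were 6.31% higher and 5.54% lower. None of the 12 was called in CD157+CD200+ relative to CD157-CD200+ ECs, against 1.05% of all features. The shear-stress factors Klf2 and Klf4 were called in none of the 4 comparisons. The median difference of the list was 0.85 in EC-SP cells, 0.15 in CD157+CD200+ ECs and 0.14 in CD157-CD200+ ECs, each against its partner group above.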

How the data were processed

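Sorted mouse liver endothelial cells were measured on 15 one-colour Agilent arrays. Per the labels' protocols, RNA was column-purified, amplified with a whole-transcriptome kit and labelled with Cy3. Per the submitters' processing notes, spots were quantified with Agilent Feature Extraction. The deposited scanner files give, per the file headers, background-subtracted spot intensity in Cy3 (linear). In the authors' series table each array's intensity is a fixed multiple (5.46 to 10.1) of the scanner value. It is linear and not centred, its array medians were 218.3 to 335.4, and no source used here says what set the multiple.

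Spots marked as outliers (110 to 213 of 59305 per array) were left out, and none was saturated. Values were log2 of the processed signal minus that of the array's 75th percentile. A feature was tested where some group of the fit had it well above background on each of its 3 arrays, with the probe of highest mean signal for each gene. Counts of called list members therefore include genes that passed only through the group where they were high. The calls of such genes are descriptions. The fits used limma 3.58.1 in R 4.3.3 (lmFit, eBayes, two-sided), on 6 arrays for EC-SP and EC-MP, on 9 for the subsets and on 15 for the difference between both. The fitting script was first tested on simulated data. Folds of probes below background on a whole group are bounds against the lowest signal well above background on each array. The number of arrays limits the precision. The labels do not say whether the independent samples came from separate animals, so p-values measure the spread between these samples.

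Same-numbered arrays shared a slide and a scan within each set. Their deviations from the group means correlated at 0.25 to 0.31 (EC-SP and EC-MP) and 0.25 to 0.61 (subsets), against -0.18 to -0.07 and -0.47 to 0.03 for different numbers. The pairing was therefore taken as real, from the labels' numbers and the slides, and the block is an alternative fit. The alternatives were the scaling, the filter, the deposited table, normexp (on the median signals, since the files used hold no mean signal) with quantile normalization, marked spots kept, the block, each array left out and, chosen after seeing the data, every probe as its own feature.

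The members, lists and motifs were chosen with earlier results of these data known. Named genes are the 6 connexins, the 3 genes most like each, the tested other connexins and pannexins (some of which are not reported here), the called partners and regulators, and Bst1 and Cd200; Sox17, Klf2 and Klf4 where not called, and Pecam1, Cdh5, Stab2, Lyve1, Rgs5, Pdgfrb, Lrat, Dcn, Cspg4, Des, Pf4 and background markers, were added after their values were seen.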

Additional observations from a re-analysis of the deposited data

Results flagged for a closer look

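For Gja5, the EC-SP minus EC-MP difference was smaller than the CD157+CD200+ minus CD157-CD200- difference, with a contrast of -4.15 on the log2 scale (adjusted p = 7.74e-05, limma). All 3 same-numbered pairs moved the same way in both comparisons. For Gjb2, the same test gave 3.35 (adjusted p = 0.0155), but 0.62 with normexp (adjusted p = 0.0727). Of the 4 groups in that test, EC-SP cells had 1 of 3 arrays well above background, EC-MP and CD157+CD200+ cells 0 of 3 each and CD157-CD200- ECs 3 of 3. The probe passed the filter only through CD157-CD200- ECs, so this value is a description of signals near background.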

How the results depend on the processing

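No connexin difference that was called changed sign under any alternative that was run. Gja5 and Gjc1 in both comparisons with CD157-CD200- ECs, and Gja4 in EC-SP minus EC-MP and in CD157+CD200+ minus CD157-CD200-, kept their calls in all of them. The counts below include Gjb2 wherever it was tested, with 4 called in each comparison with CD157-CD200- ECs. The calls of Gjb2 itself are a description, because of its filter. In EC-SP minus EC-MP, 2 connexins were called with no filter on dim probes in place of 5 (Gja1, Gja5 and Gjb1 lost, with adjusted p of 0.0578, 0.0567 and 0.0843, where 36786 features were tested), and 3 to 5 when 1 array was left out; Gjb1 was also lost with the deposited table (0.0702). In CD157+CD200+ minus CD157-CD200+, 1 was called with normexp in place of 0, and 0 to 1 without 1 array. The count was 2 to 4 without 1 array in CD157-CD200+ minus CD157-CD200- and 1 to 3 in the difference between the 2 steps. In the difference between the 2 sorts, normexp called 1 in place of 2 and the replicate block called 4 (Gja1 and Gjc1 added); the block changed no other connexin call. Slide and replicate number coincide, so no separate slide block was run. Over all features, the block called 6938 in place of 3601 in CD157+CD200+ minus CD157-CD200-, 727 in place of 248 in CD157+CD200+ minus CD157-CD200+, 5282 in place of 2807 in CD157-CD200+ minus CD157-CD200-, 2230 in place of 990 between the steps and 3192 in place of 1265 between the sorts. With no filter, 2279 in place of 3968 features were called in EC-SP minus EC-MP and 598 between the steps. The deposited table moved the median of all features to -0.17 in EC-SP minus EC-MP. Causes other than the numbers of features and arrays were not tested. Dim probes, Gjb2 among them, carry the least signal over background.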

Other observations

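The 2 Gja5 probes shared their direction, and the difference was larger on the brighter one, 6.10 against 4.21 on the dimmer one in CD157-CD200+ minus CD157-CD200- ECs.

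The venous list was split in EC-SP minus EC-MP, where 2 of 8 rose and 5 fell, while 4 rose and none fell in CD157+CD200+ minus CD157-CD200-. Of all features, 9.11% were called higher and 7.44% lower in the first comparison, and 8.09% and 7.11% in the second. Wnt2, 1 of those that fell, was above background on no EC-SP array, so its fall is a description. Its mean level was 1.54 to 1.88 on EC-SP arrays and 2.84 to 3.30 on EC-MP arrays. It was 3.45 to 3.85 on CD157+CD200+ arrays and 0.77 to 1.44 on CD157-CD200- arrays.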
